A study of Mus musculus with 6 samples.

Results

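The transcripts that distinguish mouse mesenteric lymph node from a pool of RNA from cultured mouse cell lines were measured as the within-array ratio of the node to the pool on 2-colour arrays. All 6 of the 6 arrays in the series were used, each with the node RNA labelled with Cy3 and the pool labelled with Cy5. The nodes came from untreated adult mice of 2 knockout genotypes, B-TNF KO (3 arrays) and TB-TNF KO double (3 arrays), with no wild-type node among the samples used here. Each array carried 2 µg of total RNA from the pooled nodes of 3 mice of one genotype, so a value is the average of a pool and not of an animal. The labels give male mice for 5 arrays and female mice for TB-TNF KO array 2, and they do not say which promoter removed the gene or in how many cells. The reference was the same on every array, equal parts of RNA from 11 lines, namely B lymphocyte, T lymphocyte and alveolar macrophage lines and others from embryo fibroblasts, myoblasts, mammary gland, skin, testis, liver, kidney and whole embryo.

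A lymph node gathers lymphocytes that leave the blood through high endothelial venules and are then arranged by stromal cells. Reticular stroma of the T cell zone makes CCL19 and CCL21, which bind CCR7, and follicular stroma makes CXCL13, which binds CXCR5. Resident macrophages and dendritic cells take up and present antigen carried in by lymph. Most node lymphocytes are resting. Cultured lines, by contrast, divide continuously, adhere to plastic in most cases, and stand for single cell types.

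The log2 ratio of node over reference was taken on each array after background correction and loess normalisation between the dyes, so 1 unit is a 2-fold difference and 0 is equal normalised signal. No array had the dyes swapped, so a difference between RNAs and a dye effect of a probe cannot be told apart. Median net intensity per array was 144 to 203 in the node channel and 280 to 362 in the reference channel. Log ratios of different arrays correlated with r of 0.927 to 0.991 over the 15 pairs of arrays, across genes, which are not independent replicates. TB-TNF KO arrays 1 and 2 differed in the node channel about as much as in the shared reference channel (SD ratio 1.10, against 1.23 to 1.79 for the other 14 pairs), so they were averaged and counted as 1 sample. This left 3 B-TNF KO and 2 TB-TNF KO samples. The spread is that between these pools, and the reference, being 1 RNA, has no spread of its own in any test.

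Of 37182 genes tested, 1476 were higher in the node than in the reference and 1338 were lower. A gene was called when the average of both genotypes differed by more than 2-fold, tested in limma with a minimum log2 ratio of 1 (treat) and a Benjamini-Hochberg adjusted p under 0.05. The called shares were 3.97% higher and 3.60% lower over all genes, and 6.56% higher and 5.91% lower over the 12183 genes with a symbol, against which the counts below should be read. Of the 1476 genes, 1382 exceeded 1 on each of the 6 arrays, and of the 1338, 1262 lay below -1 on each. The upper range was wider by count, with 178 genes above 3 and 99 below -3. Fitted on the 3 B-TNF KO pools alone, 1483 genes were higher and 1191 lower, and on the TB-TNF KO samples alone 1330 were higher and 1258 lower. Per the file headers, each day of image extraction held arrays of 1 genotype only, so the day and the genotype cannot be told apart, and no day held both. The balance of the 2 directions is set by the normalisation. With each array only centred on its median, 1247 were higher and 2027 lower, and with no normalisation between channels 503 were higher and 5187 lower, with the median gene shifted to -0.69.

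**Figure D1:**
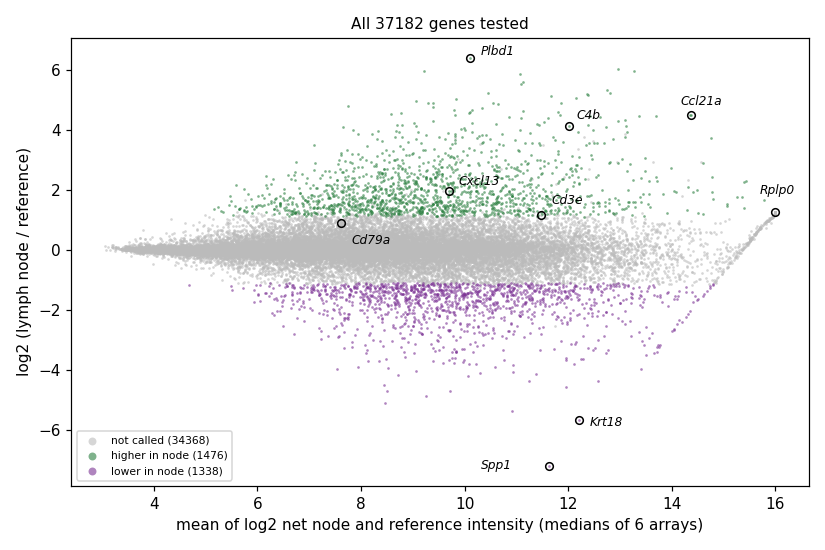
Each point is a gene. The x axis is the mean of the log2 net intensities of both channels (medians of the 6 arrays), and the y axis is the average log2 ratio of node over reference. The 1476 genes called higher and the 1338 called lower are coloured, and named genes are ringed. The diagonal edge at the right, ending at Rplp0, is formed by probes whose reference signal was saturated.

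Of the 5 genes that mark the tissue, 3 were called. Ccl21a, the T zone chemokine, had log2 ratios of 4.30, 4.49 and 3.87 on the B-TNF KO arrays and 4.82, 4.99 and 4.60 on the TB-TNF KO arrays. Its node signal was saturated on all 6 arrays, so it was at least 22.4-fold higher in the node (limma treat adjusted p = 8.17e-07). C4b, a complement component made by follicular and other stroma, lay between 4.01 and 4.21 on all arrays, and its average of 4.12 (SE 0.02) is a 17.4-fold difference. Cxcl13, the follicle chemokine, had ratios of 2.94, 2.82 and 2.64 in B-TNF KO and 1.12, 1.10 and 1.19 in TB-TNF KO. The average of 1.97 (SE 0.05) passed the test, but in the TB-TNF KO samples alone the adjusted p was 0.13. A second, dimmer Cxcl13 probe averaged 4.24.

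The lymphocyte markers were closer to equality. Cd3e, a chain of the T cell receptor complex, had ratios of 0.99, 1.31 and 1.17 in B-TNF KO and 1.13, 1.23 and 1.20 in TB-TNF KO. All 6 arrays were on the node side, but the average of 1.17 (SE 0.05) did not exceed 2-fold by the test (limma treat adjusted p = 0.068). Counting the 6 arrays separately gave an adjusted p of 0.023, and doing so with the replicate number as a block gave 0.0061. Cd79a, a chain of the B cell receptor complex, had ratios of 1.01, 1.13 and 1.19 in B-TNF KO and 0.67, 0.54 and 0.77 in TB-TNF KO, and was not called. The Cd79a probe was the dimmer, with normalised log2 signals of 8.11 to 8.76 in the node and 7.42 to 7.57 in the reference. Those of Cd3e were 11.90 to 12.20 and 10.84 to 11.01. The background offset pulls ratios of dim probes towards 0. The reference pool holds a B and a T lymphocyte line, whose RNA enters the denominator of both ratios. Over the 25 fits with a minimum log2 ratio of 1, including plain background subtraction without the offset, Cd79a reached at most 1.11 and Cd3e 1.22. Cd79a was called in none of these fits and Cd3e in 5. Whether either point had a part in the ratios was not tested. Whether more cells of a type or more RNA per cell lies behind any ratio cannot be told apart in whole-node RNA.

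The 15 genes furthest to the node side came from several cell types. Plbd1, a phospholipase B-like protein of myeloid cells, was the furthest, at 6.42, 6.43 and 6.27 in B-TNF KO and 6.54, 6.47 and 6.31 in TB-TNF KO, an 83.8-fold difference (SE of the log2 ratio 0.04, adjusted p = 1.58e-08). The macrophage scavenger receptor Marco averaged 5.96 (SE 0.13) and C1qa, a chain of the first complement component, 5.17 (SE 0.03). Glycam1, the mucin of high endothelial venules, averaged 5.31, Cd83, a surface protein of mature dendritic cells and activated lymphocytes, 5.23, and Il4i1, a secreted amino acid oxidase, 5.18. Tnfrsf13c, the receptor for the B cell survival factor BAFF, averaged 4.90 and Rgs5, a gene of pericytes, 4.97, although it was the only gene called of 9 in the smooth muscle and pericyte list, whose median was -0.21. Fabp4 at 6.04, Cfd at 5.05 and Cidec at 4.91 are genes of fat cells, and Cfd also encodes a complement protease. The remaining genes were Ms4a6b, Ms4a4b and Ms4a4c, of a family of 4-span membrane proteins, and the survival gene Bcl2a1b at 4.91. In 11 of these 15 the SD over the 5 samples was below 0.20, so the pools differed from each other by far less than the node differed from the reference.

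**Figure D2:**
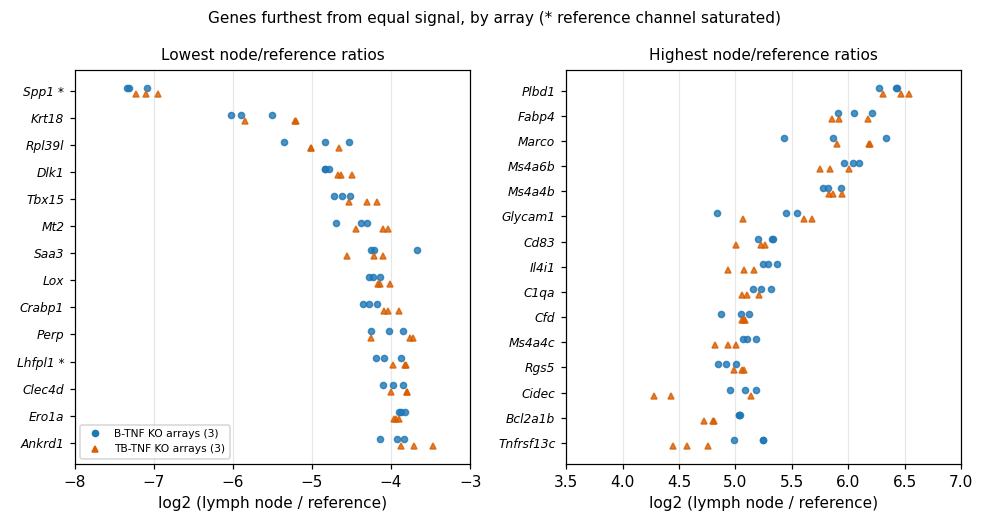
Log2 ratio of node over reference on each array for 14 of the 15 genes lowest (left) and the 15 highest (right) in the node, by the naming rule. Circles are the 3 B-TNF KO arrays and triangles the 3 TB-TNF KO arrays. No array of any gene shown lies nearer to 0 than -3.47 or 4.28. Asterisks mark Spp1 and Lhfpl1, saturated in the reference on all 6 arrays, so their ratios are limits.

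Of the B cell list, 12 of 15 measured genes were higher and none lower, with a median log2 ratio of 1.99. The B cell coreceptor Cd22 was at 3.97, 4.09 and 3.97 in B-TNF KO and 4.05, 4.12 and 4.18 in TB-TNF KO. Fcrla averaged 4.53, Cd79b 3.77, Ms4a1 (CD20) 3.56 and the low-affinity IgE receptor Fcer2a 2.06. Chains of one receptor complex therefore had unequal ratios, with Cd79b at 3.77 (SE 0.03) beside Cd79a at 0.90 (SE 0.04). The Cd79a value comes from the probe with the low signals given above. Pax5, the B lineage transcription factor, was at 0.07. With no normalisation between channels 6 of the 15 were called higher.

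The T cell list had 12 of 18 genes higher and none lower, and a median of 1.57. The CD3 chains again spread widely, with Cd3d at 4.93, 4.97 and 4.74 in B-TNF KO and 4.79, 4.83 and 4.85 in TB-TNF KO, Cd3g averaging 3.17 and Cd247 1.72. Cd8b1, a chain of the CD8 coreceptor, averaged 3.16 and a second probe of it 5.43. The signalling proteins Lck and Zap70 averaged 2.84 and 2.28, and the costimulatory receptors Cd28 and Ctla4 2.08 and 1.60. Cd4 was at 0.43, the regulatory T cell factor Foxp3 at 0.31 and Gata3 at -0.33, none called. With no normalisation 6 of the 18 were called higher and 1 lower.

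Genes of naive lymphocyte homing and quiescence had 13 of 18 members higher, none lower and a median of 2.73, which was the highest of the 46 lists here but not with no background subtraction, where it was 1.65 and that of class II presentation 2.15. On arrays 1 and 2 of both genotypes the exocrine pancreas median, given below, was higher than that of this list. Il7r, the receptor for the survival cytokine IL-7, was at 5.04, 4.67 and 4.96 in B-TNF KO and 4.65, 4.49 and 4.81 in TB-TNF KO. Klf2, a transcription factor of resting lymphocytes, averaged 4.11 and its target S1pr1, the receptor used to leave the node, 2.98. The homing receptor Ccr7 averaged 3.56, and Cxcr5, which takes B cells into follicles, 3.92. With no normalisation between channels 12 of the 18 were called higher.

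Receptors for chemokines as a family, chosen after their values were seen, had 8 of 17 members higher and none lower. Beside Ccr7, Cxcr5 and Cxcr4 (2.28), they included Ccr6 at 2.92, Ccr2 at 2.90, Cxcr3 at 2.77 and Cxcr6 at 1.56.

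Genes of immature lymphocytes did not follow. Only 4 of 15 were called, all higher, and the median was 0.11. The recombination genes Rag1 and Rag2 averaged 0.01 and -0.07, the surrogate light chains Vpreb1 and Vpreb2 both 0.03 and the pre-T cell receptor chain Ptcra -0.06. Of the 15, 4 were dim, with net intensity under 100 in both channels on at least 3 arrays, where the background offset pulls ratios towards 0. The called members were Cd1d1 at 2.54, Vpreb3 at 1.92, Cd24a at 1.57 and Lmo2 at 1.19. The immunoglobulin and plasma cell list had 7 of its 17 genes measured, with 1 higher (Derl3, 1.52) and 1 lower (Fkbp11, -1.46). The other measured members were Prdm1, Xbp1, Tnfrsf17, Creld2 and Edem1, so no immunoglobulin gene was read.

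Of the cytotoxic list, 6 of 13 were higher and none lower, with a median of 1.14. Klrd1, a natural killer receptor chain, averaged 3.28, the interleukin receptor chain Il2rb 3.21, granzyme A (Gzma) 3.01 and the chemokine Ccl5 2.77. Ncr1, the receptor that marks natural killer cells, averaged 1.14 and was not called.

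The Gimap and Bcl2a1 families were on the node side as a whole and the Ms4a family in part, each with neighbouring, related members. They were picked after their values were seen, so their counts are descriptions. Of 13 Ms4a genes, 8 were higher and none lower, led by Ms4a6b at 5.95, Ms4a4b at 5.85, Ms4a4c at 5.03 and Ms4a4d at 4.29. All 4 measured Gimap genes, GTPases of lymphocyte survival, were higher, from 2.76 for Gimap3 to 4.42 for Gimap6. All 3 measured Bcl2a1 genes were higher, at 4.91, 4.63 and 4.60, but these are near-identical copies whose probes may read each other's RNA. With no normalisation between channels all 4 Gimap genes, all 3 Bcl2a1 genes and 6 of the 13 Ms4a genes were called higher.

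Antigen presentation genes were on the node side. Of the class II list 8 of 9 were called higher and none lower, with a median of 2.62. H2-DMb1, which helps load peptide, was at 4.27, 4.49 and 4.33 in B-TNF KO and 4.44, 4.43 and 4.37 in TB-TNF KO. The invariant chain Cd74 averaged 3.93 and the class II chain H2-Eb1 3.70. Ciita, the transactivator of these genes, averaged 1.32 but lay between 0.83 and 1.07 on the B-TNF KO arrays, and it was not called in those samples alone. Of the class I list 5 of 7 were higher, among them the immunoproteasome subunits Psmb8 (2.86), Psmb9 (2.81) and Psmb10 (2.30) and the peptide transporter Tap2 (1.96). Of 9 interferon regulatory factors, 6 were higher, with Irf8, a factor of B cells and dendritic cells, at 4.13, Irf1 at 2.37 and Irf5 at 2.24.

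Dendritic cell genes were divided, with 7 of 14 higher and none lower. Besides Cd83 and Irf8, the lectins Clec10a and Clec9a averaged 2.96 and 2.45 and the integrin Itgax 2.04. Xcr1, a receptor of cross-presenting dendritic cells, and Tcf4, a factor of plasmacytoid cells, both averaged -0.48.

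Macrophage genes had 12 of 16 members higher, none lower and a median of 2.01. Lyz2, lysozyme, was at 4.52, 4.58 and 4.32 in B-TNF KO and 4.46, 4.46 and 4.41 in TB-TNF KO. The C1q chains averaged 5.17 (C1qa), 4.25 (C1qc) and 2.85 (C1qb). Siglec1, which marks macrophages lining the sinuses, averaged 2.93, Mertk, a receptor for dying cells, 1.90 and Timd4 1.81. Folr2 at 1.13 was called, but its limma adjusted p was 0.058 with the 6 arrays counted separately and 0.10 with the replicate number as a block besides. Adgre1 (F4/80) at 1.11 was not called, and had 0.080 and 0.047 in those fits.

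Single genes known from macrophages, outside that list and picked after their values were seen, lay on the reference side. Spp1, secreted osteopontin, was the lowest gene named by the rule, at -7.34, -7.09 and -7.31 in B-TNF KO and -7.09, -6.95 and -7.23 in TB-TNF KO. Its reference signal was saturated on all arrays, so it was at least 146-fold lower in the node. The lectins Clec4d and Clec4e, receptors for microbial glycolipids, averaged -3.94 and -3.71, while Clec4n of the same family averaged 2.41. The acute-phase gene Saa3 averaged -4.20 and the chemokine Ccl3 -3.31. The endotoxin coreceptor Cd14, a member of the macrophage list, averaged -1.09 and was not called. One of the 11 lines of the pool is an alveolar macrophage line.

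Chemokines were divided in the same way. On the node side stood the homeostatic Ccl19 at 4.51, 4.53 and 4.40 in B-TNF KO and 4.62, 4.47 and 4.37 in TB-TNF KO, with Ccl21b at least 13.1-fold higher. Ccl8 averaged 3.23, Cxcl16 3.09, the interferon-induced Cxcl9 and Cxcl10 2.73 and 1.77. On the reference side were the neutrophil attractants Cxcl1 at -3.17 and Cxcl5 at -1.85, and Ccl3 and Ccl7 at -3.31 and -1.69. In all, 8 of 18 Ccl genes were higher and 2 lower, and 4 of 10 Cxcl genes were higher and 2 lower. The median of each family was positive (0.70 and 0.32) but turned negative, to -0.02 and -0.34, with no normalisation between channels.

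Stromal genes were split within their list. Of 18 genes of reticular stroma, 9 were higher and 1 lower, with a median of 1.36. With median centring 9 were higher and 3 lower, and with no normalisation 5 were higher and 4 lower. The adhesion molecules Icam1 and Vcam1 averaged 2.69 and 1.62 and the matrix proteoglycans Lum and Dcn 2.40 and 1.93. Tnfsf11, the cytokine RANKL, averaged 1.67. Pdgfra, a receptor of fibroblasts, was lower at -1.89, and Cxcl12, Ltbr and Pdpn, at -1.03, -1.11 and -0.86, were not called. The follicular dendritic list had 7 of 12 higher, with clusterin (Clu) at 3.77 and Mfge8 at 1.93, and 1 lower, Sox9 at -1.26.

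Vessel genes were mostly on the node side. Of 14 blood endothelial genes 9 were higher and none lower, with the tight junction gene Cldn5 at 3.11, Egfl7 at 3.10, Robo4 at 2.81 and Plvap at 2.29. Of 14 lymphatic genes 6 were higher and 1 lower. Lyve1, the hyaluronan receptor of lymphatic vessels and some macrophages, was at 4.38, 4.44 and 4.47 in B-TNF KO and 3.33, 3.13 and 3.19 in TB-TNF KO. The high endothelial list had only 4 of 11 genes called and a median of 0.14, although Glycam1 was among the highest genes. Madcam1, a ligand of gut-homing lymphocytes, averaged 3.53, Gcnt1 1.97 and Fut7 1.50, the last 2 being glycosyltransferases, while Chst4 was at -0.02.

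Complement genes were higher in 8 of 16 and lower in none, with a median of 1.73. Beside C1q, C4b and Cfd, Cfb averaged 3.61, C2 2.55 and C3 2.28. The receptor C5ar1 and the late component C6 lay at -0.03 and -0.04. Of the TNF and lymphotoxin family 7 of 18 were higher and none lower. Ltb, a membrane lymphotoxin that organises the node, was at 3.95, 4.10 and 3.94 in B-TNF KO and 4.04, 4.01 and 3.91 in TB-TNF KO. Cd40 averaged 1.71, Fasl 1.78 and Tnfrsf4 (OX40) 1.72. With no normalisation 2 of the 18 were higher and 3 lower.

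Interferon-stimulated genes had 10 of 24 members higher, none lower and a median of 0.82, which became -0.03 with no normalisation. The called genes included the GTPases Iigp1 at 3.55, Gbp3 at 1.68, Irgm1 at 1.55, Igtp at 1.46 and Gbp2 at 1.41, and the nucleic acid sensor Zbp1 at 2.11. Ifit3 averaged 1.39. Among the members that were not called were Ifit1 at 0.55, Isg15 at 0.79, Oas2 at 0.41, Irf7 at -0.04, Usp18 at -0.12 and Rsad2 at -0.22.

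Gbp2, Ifit3 and Irgm1 are shown by the 150 bases before their annotated start, because the interferon-stimulated response element (ISRE, a pair of GAAA runs on one strand 2 bases apart, searched on both strands) lies there. Sequences are from RefSeq (GRCm38.p6), read on the strand of the gene, with matches in capitals. The windows were chr3:142620513-142620662 (+ strand), chr19:34583379-34583528 (+ strand) and chr11:48871421-48871570 (- strand).
Gbp2: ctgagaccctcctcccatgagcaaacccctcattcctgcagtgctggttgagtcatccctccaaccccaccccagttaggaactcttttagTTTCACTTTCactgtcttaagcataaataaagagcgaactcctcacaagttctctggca
Ifit3: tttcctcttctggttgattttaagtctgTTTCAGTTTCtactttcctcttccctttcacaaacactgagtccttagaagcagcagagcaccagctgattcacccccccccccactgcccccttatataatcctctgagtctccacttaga
Irgm1: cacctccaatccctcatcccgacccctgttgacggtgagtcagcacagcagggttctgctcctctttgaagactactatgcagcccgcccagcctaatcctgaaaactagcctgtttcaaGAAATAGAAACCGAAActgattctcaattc
In windows of 300 bases (250 before and 50 after the start), 13 of the 19 list members with a promoter held the motif, against 4.15% of the 9692 tested genes with a promoter and 3.44% of all windows in the table. Of the 7 called members 6 held it, and of the 12 that were not called 7 did.

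Fat cell genes were on the node side, with 8 of 16 higher, none lower and a median of 1.49. Fabp4 was at 6.05, 6.21 and 5.91 in B-TNF KO and 5.92, 5.85 and 6.17 in TB-TNF KO. Adiponectin (Adipoq) averaged 4.65, the lipogenic Thrsp 3.04, the desaturase Scd1 2.76 and perilipin (Plin1) 2.09. Mesenteric nodes lie in fat, and the labels do not say how they were trimmed.

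Exocrine pancreas genes set the arrays apart. The median of 18 digestive enzyme and related genes was 3.13 and 4.05 on B-TNF KO arrays 1 and 2 and 4.22 and 4.25 on TB-TNF KO arrays 1 and 2. On array 3 of each genotype it was 0.02 and -0.0021. Reg1 ranged from 0.10 to 7.17 and the elastase Cela3b from 0.20 to 6.53. None of the 18 was called by limma treat over the 5 samples. With the 6 arrays counted separately 1 was called, and with the replicate number as a block besides 13 were. Fitted on both replicate 3 arrays alone, where the pancreas median was near 0, 1220 genes were higher and 960 lower. Among them were 1172 of the 1476 and 948 of the 1338. Not every pancreas gene was near 0 there, as Prss2 stayed at 1.07 or above in every fit with a minimum log2 ratio of 1.

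Some called genes were lower on the same arrays. Klk1, tissue kallikrein, was at 4.82, 5.68 and 4.23 in B-TNF KO and 5.77, 5.70 and 3.14 in TB-TNF KO, and had the largest SD over samples (1.08) of all called genes with a symbol that the naming rule allows. Glycam1 fell from 5.45 and 5.55 to 4.83 on array 3 of B-TNF KO and was 5.60, 5.68 and 5.06 in TB-TNF KO. Its normalised log2 signals over the arrays ranged from 12.94 to 16.04 in the node. They ranged from 8.11 to 10.44 in the reference, although that was the same RNA on every array. Madcam1 was 3.93, 3.82 and 3.00, and 4.09, 3.90 and 2.97. Whether pancreas in the dissected tissue had a part in these was not tested.

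**Figure D3:**
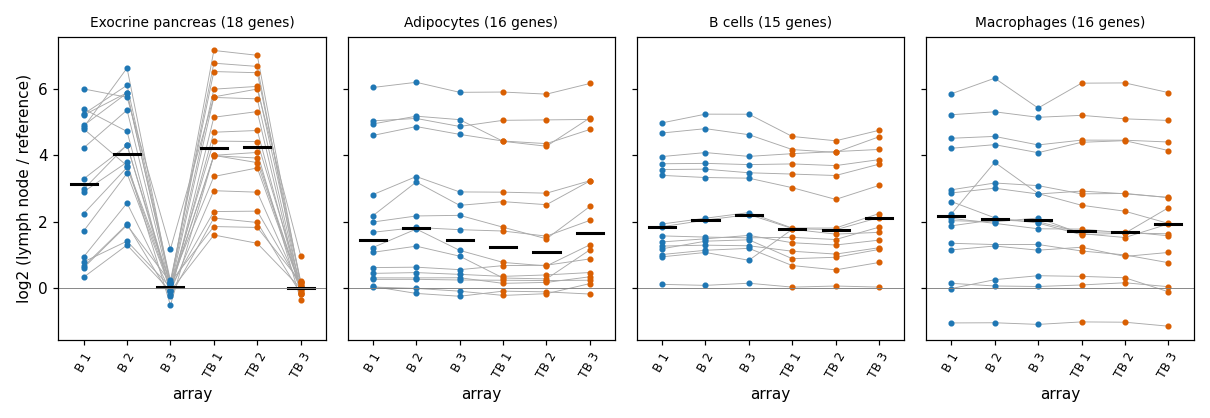
Log2 ratio of node over reference of every measured gene of 4 lists on each array, with B for B-TNF KO and TB for TB-TNF KO. Grey lines join a gene's values and black bars are list medians. The median of the 18 pancreas genes drops to about 0 on array 3 of both genotypes. The medians of the 16 fat, 15 B cell and 16 macrophage genes show no such drop.

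Markers of other tissues were mostly near equality. No mast cell gene of 10 was called, and their averages lay between -0.07 and 0.14, 4 of them dim. Of 12 neutrophil genes only S100a9 (3.01) and Camp (1.44) were called, while S100a8, the partner of S100a9, was at -0.33. Of 15 hepatocyte genes 3 were higher, transferrin (Trf) at 3.99, Cyp2e1 at 3.88 and Serpina1b at 1.32. Other secreted liver proteins, Ttr, Apoa1 and Ahsg, were at 0.34, 0.02 and 0.08. None of 13 kidney tubule genes and none of 10 nerve genes was called.

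**Figure D4:**
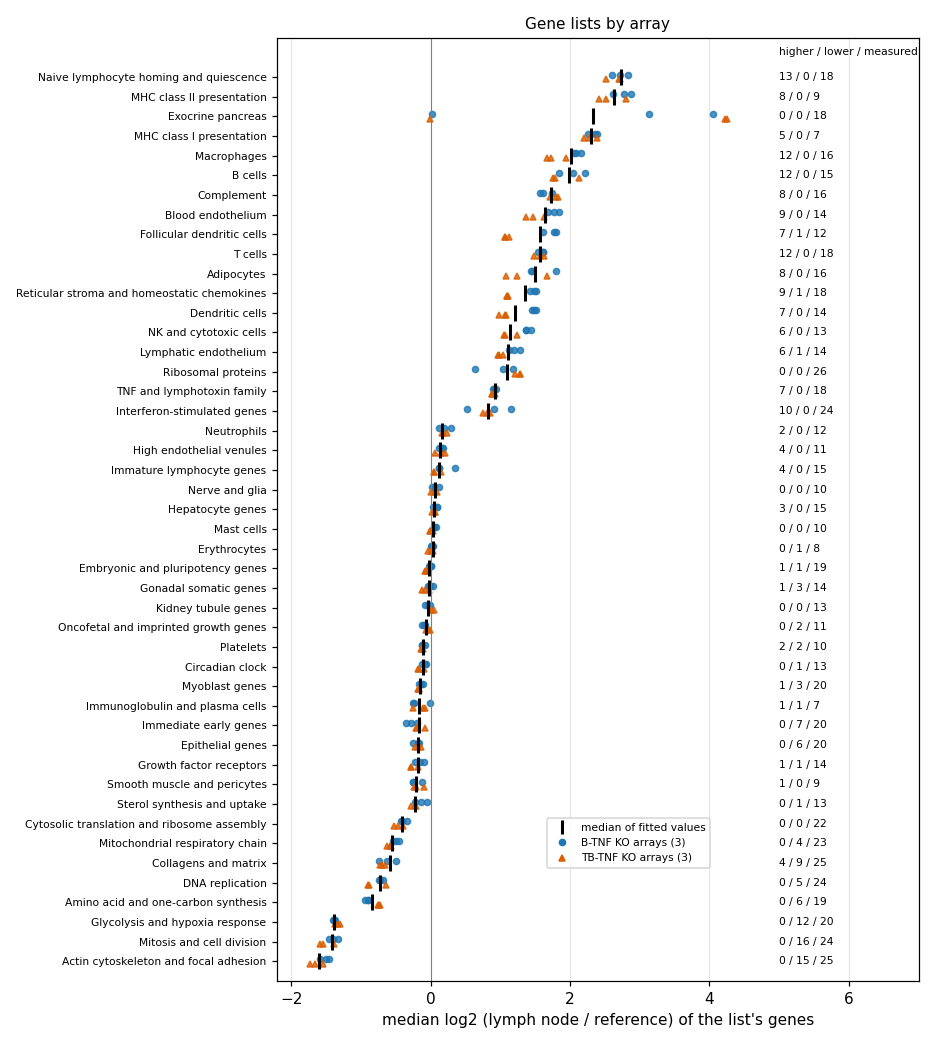
Median log2 ratio of node over reference for each of 46 gene lists. Circles are B-TNF KO arrays, triangles TB-TNF KO arrays, and black ticks the median of the fitted averages. Counts at the right are genes called higher, called lower and measured. Lists of lymphocyte homing and antigen presentation stand at the top and those of mitosis and of the actin cytoskeleton at the bottom, while exocrine pancreas spans 0 to above 4.

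On the reference side, the lowest genes named by the rule after Spp1 were of several kinds, and which of the pooled lines each came from was not tested. Krt18, a keratin of simple epithelia, was at -5.90, -5.51 and -6.03 in B-TNF KO and -5.22, -5.20 and -5.84 in TB-TNF KO, which is 50.8-fold lower in the node (SE 0.11, adjusted p = 4.88e-07). A second Krt18 probe averaged -3.99. Dlk1, an imprinted growth regulator, averaged -4.72, and the developmental transcription factor Tbx15 -4.50. Over the 25 fits with a minimum log2 ratio of 1, Tbx15 ranged from -5.69 to -0.04, and in 1 it was not called. Rpl39l, a paralogue of a ribosomal protein, averaged -4.87, the retinoid carrier Crabp1 -4.15 and the junction protein Perp -4.02. Lox, the enzyme that crosslinks collagen, averaged -4.17 and Ankrd1, a muscle and stretch-response gene, -3.85. Lhfpl1 was saturated in the reference on all arrays and at least 15.7-fold lower in the node.

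Genes of cell division lay on the reference side. Of 24 measured mitotic genes 16 were lower in the node and none higher, and the median was -1.42. By comparison, 3.60% of all genes and 5.91% of those with a symbol were called lower. The spindle checkpoint kinase Bub1 was at -2.55, -2.69 and -2.61 in B-TNF KO and -2.86, -2.83 and -2.63 in TB-TNF KO. Ttk averaged -2.41, the ubiquitin-conjugating enzyme Ube2c -2.34, Cdk1, the kinase that starts mitosis, -2.10, Cdc20 -2.06 and cyclin B1 (Ccnb1) -2.03. Plk1 (-0.03) and Kif2c (-0.04) were not called. Genes of DNA replication had a median of -0.72, with 5 of 24 lower, led by the chromatin assembly gene Chaf1a at -2.03. With median centring 11 of these were lower and with no normalisation 16. Tfrc, the transferrin receptor that dividing cells need, averaged -1.60.

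The cell cycle genes homology region, written TTTGAA, and the CCAAT box are elements of many mitotic promoters. Promoters of 3 lower genes are shown with TTTGAA in capitals on either strand: chr10:69352913-69353062 (- strand) for Cdk1, chr2:164769779-164769928 (+ strand) for Ube2c and chr4:118437344-118437493 (- strand) for Cdc20.
Cdk1: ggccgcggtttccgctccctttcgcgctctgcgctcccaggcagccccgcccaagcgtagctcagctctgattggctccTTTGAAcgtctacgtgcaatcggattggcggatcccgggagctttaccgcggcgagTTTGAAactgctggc
Ube2c: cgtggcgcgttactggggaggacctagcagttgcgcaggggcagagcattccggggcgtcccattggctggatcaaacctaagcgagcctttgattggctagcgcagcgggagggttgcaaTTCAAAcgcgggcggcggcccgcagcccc
Cdc20: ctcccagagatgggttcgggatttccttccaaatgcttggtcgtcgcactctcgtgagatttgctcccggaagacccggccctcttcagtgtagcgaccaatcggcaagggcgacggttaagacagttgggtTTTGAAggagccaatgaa
In the windows of 300 bases, TTTGAA was in 13 of the 20 mitotic genes with a promoter, against 17.7% of tested genes and 17.9% of all windows. It was in 7 of the 13 that were called, so the called members did not hold it more often than the whole list. CCAAT was in 15 of the 20, against 42.7% of tested genes and 37.4% of all windows. Among all 553 lower genes with a promoter, TTTGAA was no more frequent (17.7%).

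Glycolysis and hypoxia genes were lower in 12 of 20 and higher in none, with a median of -1.38. Ero1a, which helps form disulphide bonds in the endoplasmic reticulum and is induced by hypoxia, was at -3.90, -3.83 and -3.87 in B-TNF KO and -3.90, -3.96 and -3.94 in TB-TNF KO. The glucose transporter Slc2a1 averaged -3.63, the oxygen-sensing hydroxylase Egln3 -3.40, triose phosphate isomerase (Tpi1) -2.50, hexokinase 2 (Hk2) -2.03 and lactate dehydrogenase (Ldha) -1.38. Pgk1 and Pkm, saturated in the reference on all 6 arrays, were at least 4.11-fold and 2.61-fold lower in the node. The promoters of 3 of these genes are shown with the core of the hypoxia response element, ACGTG, in capitals on either strand: chr14:45318573-45318722 (- strand) for Ero1a, chr4:119108595-119108744 (+ strand) for Slc2a1 and chr7:46845654-46845803 (+ strand) for Ldha.
Ero1a: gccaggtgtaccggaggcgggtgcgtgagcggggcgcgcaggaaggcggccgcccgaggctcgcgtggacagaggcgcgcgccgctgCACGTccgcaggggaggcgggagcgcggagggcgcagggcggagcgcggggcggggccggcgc
Slc2a1: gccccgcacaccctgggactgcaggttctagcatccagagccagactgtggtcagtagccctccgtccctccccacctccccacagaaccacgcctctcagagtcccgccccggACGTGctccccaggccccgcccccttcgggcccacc
Ldha: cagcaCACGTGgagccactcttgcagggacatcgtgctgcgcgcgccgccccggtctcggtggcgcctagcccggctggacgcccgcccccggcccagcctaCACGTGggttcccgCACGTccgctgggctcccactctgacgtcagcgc
The core was in 14 of the 20 list members with a promoter, against 25.4% of tested genes and 19.6% of all windows, and in 9 of the 12 that were called.

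**Figure D5:**
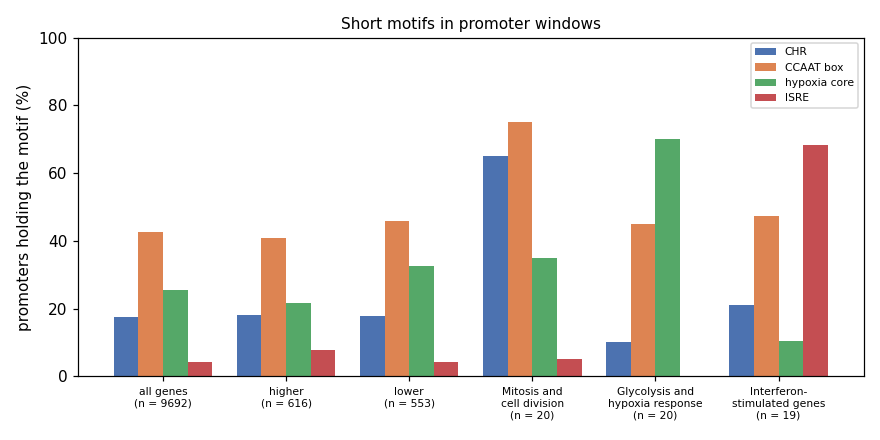
Share of genes whose promoter window of 300 bases holds each of 4 motifs on either strand, for the 9692 tested genes with a promoter, the 616 higher and 553 lower ones, and 3 gene lists. Bars start at 0. The tallest bars are those of the lists. The CCAAT box is in 15 and CHR (TTTGAA) in 13 of 20 mitotic genes, against 42.7% and 17.7% of all. The hypoxia core is in 14 of 20 hypoxia genes and ISRE in 13 of 19 interferon genes. ISRE is in 7.63% of higher genes against 4.15% of all, and the hypoxia core in 32.5% of lower genes against 25.4% of all.

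In all, 11 motifs were searched, the others being the X box of class II genes, the PU.1 site GAGGAAGT, the ETS site CCGGAAGT, the kappaB site, the E2F site TTTCCCGC, the cAMP response element TGACGTCA and TATAAA. The site of PU.1, a myeloid and B cell factor, was in 6.98% of the 616 higher genes with a promoter, 2.71% of the 553 lower and 2.97% of the 8523 not called. Other motifs went the other way. The ETS site was in 2.44% of higher, 5.06% of lower and 7.06% of uncalled genes, and the cAMP response element in 1.62%, 1.99% and 2.96%. The sets also differed in base composition. The CpG observed to expected ratio had a median of 0.52 in higher, 0.72 in lower and 0.69 in uncalled genes, and it was under 0.4 in 40.6%, 16.5% and 30.3%. ACGTG, CCGGAAGT and TGACGTCA each contain a CG, so their shares are not independent of this ratio. ACGTG was in 21.6% of higher and 32.5% of lower genes.

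Biosynthesis genes were lower in part. Of 19 amino acid and one-carbon genes 6 were lower and none higher, with asparagine synthetase (Asns) at -2.23, Atf5 at -2.21, cystathionine lyase (Cth) at -2.06 and Phgdh, the first enzyme of serine synthesis, at -1.91. Of 23 respiratory chain genes 4 were lower, from -1.24 for Ndufa5 to -1.63 for Ndufb8, against 8 with median centring and 19 with no normalisation. No gene of 22 for translation factors and ribosome assembly was called in limma treat, against 4 lower with median centring and 13 lower with no normalisation. Of 26 ribosomal protein genes, 23 were saturated in the reference and 4 in both channels on every array, so no fold is given for them. Their median of 1.09 turned to -0.16 with no normalisation. The metallothioneins Mt2 and Mt1, which bind zinc and copper, averaged -4.36 and -3.23.

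Adhesion and cytoskeleton genes had a median of -1.60, the lowest of the 46 lists in this fit, with 15 of 25 lower and none higher. The YAP and stretch target Ccn1 was at -3.27, -3.15 and -3.12 in B-TNF KO and -3.25, -3.18 and -3.17 in TB-TNF KO. Annexin A1 (Anxa1) averaged -3.66, Amotl2 -3.15, caldesmon (Cald1) -2.49 and Yap1 -1.60. S100a6 and Lgals1, saturated in the reference, were at least 9.05-fold and 5.25-fold lower. Of 12 annexins 4 were lower and none higher.

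Matrix genes went both ways, with 9 of 25 lower and 4 higher. The fibrillar collagen chains Col1a1 and Col1a2 averaged -1.88 and -1.71, Fbln2 -3.32, the protease Mmp3 -2.26 and its inhibitor Timp1 -1.45. Col14a1, which sits on collagen fibres, averaged 2.46 and periostin (Postn) 2.20, beside Lum and Dcn. With no normalisation 15 were lower and 2 higher.

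Genes of the parent tissues of the lines were called singly. Of 20 epithelial genes 6 were lower, among them Epcam at -2.55, Lamb3 at -2.01 and Krt19 at -1.99. Of 20 myoblast genes the troponins Tnnt1, Tnnc1 and Tnnt2 were lower, at -1.76, -1.53 and -1.47, and Mef2c, which B cells also express, was higher at 2.04. Of 14 gonadal somatic genes Gja1 (-3.66), Inhba (-3.45) and Sox9 were lower, Cldn11 (1.38) was higher, and the median was -0.02. Of 24 Hox genes 3 were lower, Hoxa10 (-1.92), Hoxc6 (-1.69) and Hoxc9 (-1.24). Immediate early genes had 7 of 20 members lower and none higher, with Fos at -3.61, -3.36 and -3.51 in B-TNF KO and -3.33, -3.28 and -3.23 in TB-TNF KO, Egr1 averaging -2.87, Ier3 -2.23 and Jun -1.84.

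Probes of the same gene differed in places. For 173 higher genes with a symbol the array held 181 further probes, of which 93.4% had the same sign and 52.5% also exceeded 1. For 183 lower genes it held 193, with 90.7% and 42.0%. The tested probe was the brighter one. Large gaps were seen for Ms4a1 (3.56 and 0.62), Cidec (4.91 and 0.45), Thy1 (0.05 and 2.23), Lta (0.25 and 2.56) and Krt7 (0.13 and -2.42), so a value near 0 for Thy1, Lta or Krt7 describes that probe and not the gene.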

How the data were processed

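RNA of 6 node pools was hybridised with one reference RNA on 2-colour Agilent arrays. Per the file headers, the authors' deposited files hold raw mean intensity and local background intensity of each spot and channel, and a log10 ratio of red over green after dye normalisation, from Agilent Feature Extraction A.7.5.1. No step before that is given in the sources used here.

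The intensities were background-corrected (normexp, offset 50), loess-normalised within each array with control spots at weight 0, and turned into log2 of green over red. Outlier spots (228) and control spots were left out. Of 41006 probes, 40815 were well above background in either channel on at least 3 arrays, and each gene was read from its brightest probe, giving 37182 genes. Of the probes, 15294 were named through RefSeq (GRCm38.p6) and the rest keep the name in the file.

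Group means of B-TNF KO (3 samples) and TB-TNF KO (2 samples) were fitted in limma 3.58.1 (R 4.3.3), and their average was tested with treat (minimum log2 of 1, Benjamini-Hochberg adjusted p under 0.05). SD is over the 5 samples and SE is from the fit. Where the brighter channel was saturated on all 6 arrays, a ratio is given as "at least". The number of arrays limits the precision. On simulated data the fit was checked for known changes.

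Deviations of same-numbered arrays from their group means correlated at 0.14, 0.52 and 0.62 across genes, so replicate numbers were taken as pairs in an alternative fit, which counts the 6 arrays separately. B-TNF KO array 2 also correlated with TB-TNF KO array 1 at 0.41, above the 0.14 of both first arrays. Other alternatives changed the background, normalisation, filters, probe choice, minimum ratio and samples used. The 15 genes named in each direction had the largest average ratio among called genes with a symbol that passed 1 on all arrays, and the 5 markers and up to 6 or so members of each list were named besides. The members and lists were chosen with earlier results of these data known. Lists are described by counts and medians. The deposited value table of the series was not used. Promoter motifs were searched on both strands with Python 3.11.15. Some results are not reported here.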

Additional observations from a re-analysis of the deposited data

Results flagged for a closer look

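Of 81 results checked over the 5 samples, 1 had a sample far from the others, where chance flags about 1 in 20. Cidec, a lipid droplet gene, was 4.35 in the sample made of TB-TNF KO arrays 1 and 2, against 4.95 to 5.19 in the other 4 samples. The median of the 10 mast cell genes was positive in the B-TNF KO samples, with a mean of 0.058, and negative in the TB-TNF KO samples, with a mean of -0.0021, and this difference was not tested. By array the TB-TNF KO medians were -0.0091, 0.037 and -0.0032, so 1 of the 3 arrays was positive.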

How the results depend on the processing

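The counts of 1476 higher and 1338 lower genes moved by over 1.5 times under 4 changes. With no background subtraction 684 were higher and 688 lower, median centring gave 2027 lower, no normalisation between channels gave 503 higher and 5187 lower, and the minimum ratio gave 12301 and 12966 at 0 and 437 and 273 at 2. Leaving out 1 array at a time gave 1337 to 1503 higher and 1230 to 1339 lower. Counting the 6 arrays separately gave 1531 higher and 1376 lower, and doing so with the replicate number as a block gave 1646 and 1404. Among named and listed genes, the first gave 7 further calls and the second 36, of which 13 were pancreas and 11 ribosomal protein genes, and both lost 1, Folr2. Among list medians past 1 on the log2 scale, the pancreas median changed sign on replicate 3 arrays alone (-0.00087) and the ribosomal protein median with no normalisation (-0.16). With no normalisation 9 of the 46 list medians changed sign in all, and 5 of the calls had the opposite sign. Krt7 as the mean of its probes was -1.15. Their causes were not tested. Of calls between 1 and 2 on the log2 scale, 22.8% of the higher and 37.4% of the lower were also called with no background subtraction, against 81.1% and 89.7% of those past 2. Dim signal limits 8444 genes (22.7%), whose net intensity was under 100 in both channels on at least 3 arrays.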
